A study of Homo sapiens with 8 samples.

Results

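The comparison set A549 and H460, lung cancer lines with mutated K-Ras, against H1650 and H1975, lung cancer lines with mutated EGFR. The 4 arrays titled A549 or H460 formed the K-Ras mutant class and the 4 arrays titled H1650 or H1975 formed the EGFR mutant class, so that all 8 of the 8 arrays entered. Each line had been stained with Hoechst dye and sorted into a side population (SP), whose cells extrude the dye by means of ABCG2 and related pumps, and a main population (MP), whose cells retain it. Each line gave 1 SP array and 1 MP array from 100 ng of total RNA, and no line was treated with an agent. The labels name the line and the population, and the mutation class follows from the line's name. The question was which transcripts were at another level in the K-Ras mutant than in the EGFR mutant lines whichever population was looked at.

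EGFR is a receptor kinase of the cell surface that signals through RAS, RAF, MEK and ERK, and K-Ras is the RAS protein most often mutated in lung adenocarcinoma, so that both classes carry a lesion in 1 cascade at different heights. ERK activity is read out by short-lived phosphatases and transcription factors that it induces, and many of them in turn damp the pathway. A549 and H460 are also known to carry inactivated KEAP1, the protein that holds the antioxidant factor NRF2 in check, and inactivated STK11, the kinase that through the SIK kinases restrains the CRTC coactivators of CREB. H1650 and H1975 are known to carry mutated p53, and A549 lacks SMARCA4. With 2 lines a class, the mutation class cannot be told apart from these other lesions or from any other property that both lines of a class happen to share.

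No gene passed the test of the class difference, and the description of the levels turns on 4 sets of genes. The gene lists and their members were chosen with earlier results of these data known. Their shares beside those of all genes are thus a description and carry no test. NRF2 target genes had higher signals in the K-Ras mutant lines, with 16 of the 30 tested at least 2-fold higher on every K-Ras array than on every EGFR array against 1.85% of all genes tested, among them ALDH3A1 and AKR1C3. CREB and CRTC target genes had higher signals too, with 4 of 13 such genes, among them INSL4 and PTGS2. Interferon-induced genes had higher signals in the EGFR mutant lines, with 9 of 32 such genes against 2.13% of all genes, among them BST2 and IFIT2. HOX genes had higher mean signals in the K-Ras mutant lines in 13 of the 15 tested. Of these 15, 3 were such genes, namely HOXB6, HOXB7 and HOXB8. Genes of the RAS cascade itself and of the EGFR family held no such gene. With no minimum for the gap, 7 of 17 genes of the cascade lay lower on every K-Ras array, against 13.6% of all genes.

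Promoter sequences are shown first for members of the NRF2, CREB and interferon sets, since factors known to act on them bind short DNA words. The windows came from RefSeq (GRCh38.p14) and ran from 250 bases before to 50 bases after each start. Both strands were searched. The core of the antioxidant response element, to which NRF2 binds, was searched as TGACNNNGC and was found in 9 of the 22 NRF2 target genes that had a window, against 13.3% of all 35116 windows and 16.1% of the 27305 genes. Of the NRF2 target genes whose arrays did not overlap between the classes 8 of 20 held a match, and of those that overlapped 1 of 2. The stretches of 5 of them are given 5′ to 3′ on the strand of the gene, with the match in capitals. A match on the opposite strand reads as the reverse complement of the search word.
GCLM: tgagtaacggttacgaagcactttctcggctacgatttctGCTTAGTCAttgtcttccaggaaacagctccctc
TXNRD1: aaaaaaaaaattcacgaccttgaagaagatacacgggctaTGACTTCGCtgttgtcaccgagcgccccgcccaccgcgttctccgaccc
ME1: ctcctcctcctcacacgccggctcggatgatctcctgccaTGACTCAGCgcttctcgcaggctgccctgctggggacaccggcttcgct
PGD: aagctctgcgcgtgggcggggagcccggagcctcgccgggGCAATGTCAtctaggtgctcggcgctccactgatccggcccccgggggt
CBR1: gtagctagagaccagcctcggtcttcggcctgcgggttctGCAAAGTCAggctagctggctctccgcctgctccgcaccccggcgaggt
These stretches lie at chr1:93909431-93909504 on the minus strand (GCLM), chr12:104215640-104215728 on the plus strand (TXNRD1), chr6:83431140-83431228 on the minus strand (ME1), chr1:10398823-10398911 on the plus strand (PGD) and chr21:36069825-36069913 on the plus strand (CBR1). The match began 34 bases before the start of GCLM, 99 before TXNRD1, 137 before ME1, 201 before PGD and 159 before CBR1. The match of TXNRD1 and that of ME1 read in the direction of the gene, and the other 3 read in the opposite direction.

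The core of the interferon-stimulated response element, to which the interferon-activated factors bind, was searched as a pair of GAAA words with any 2 bases between them. It was found in 16 of the 24 members of the interferon list that had a window, against 3.57% of all windows and 4.38% of the genes. Members whose arrays did not overlap held a match in 9 of 12 cases and those that overlapped in 7 of 12, so that the word was common on both sides. The stretches of 5 members that were at least 2-fold higher on every EGFR array are given, each with 2 matches in capitals, which share bases where the capitals run on.
BST2: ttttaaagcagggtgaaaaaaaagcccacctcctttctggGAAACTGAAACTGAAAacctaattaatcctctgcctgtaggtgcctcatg
IFIT1: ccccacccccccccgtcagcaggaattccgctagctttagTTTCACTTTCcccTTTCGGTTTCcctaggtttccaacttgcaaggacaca
IFIT3: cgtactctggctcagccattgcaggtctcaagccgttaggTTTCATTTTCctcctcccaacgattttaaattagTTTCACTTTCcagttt
ISG15: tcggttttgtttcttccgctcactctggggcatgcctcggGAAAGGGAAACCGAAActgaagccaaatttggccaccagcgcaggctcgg
IFI27: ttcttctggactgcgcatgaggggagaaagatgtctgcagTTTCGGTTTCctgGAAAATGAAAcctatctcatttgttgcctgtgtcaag
They lie at chr19:17405711-17405800 on the minus strand (BST2), chr10:89392467-89392556 on the plus strand (IFIT1), chr10:89327801-89327890 on the plus strand (IFIT3), chr1:1013344-1013433 on the plus strand (ISG15) and chr14:94110588-94110677 on the plus strand (IFI27). The first match began 130 bases before the start of BST2, 116 before IFIT1, 156 before IFIT3, 113 before ISG15 and 108 before IFI27.

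The cyclic AMP response element, to which CREB binds, was searched as TGACGTCA, a word that is its own reverse complement. It was found in 3 of the 11 members of the CREB and CRTC list that had a window, against 1.85% of all windows and 2.25% of the genes. Of the members whose arrays did not overlap only AVPI1 held it, and its stretch is shown for that reason.
AVPI1: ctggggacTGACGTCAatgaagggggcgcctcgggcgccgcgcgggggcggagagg
The stretch lies at chr10:97687436-97687491 on the minus strand, and the match began 242 bases before the start. A match is a description of the letters in these windows and no measure of binding.

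The values are log2 MAS5 signals, which estimate the level of a transcript from the probes of a probe set. The median over all probe sets lay between 5.92 and 6.29 on the arrays, and every array had been scaled to a trimmed mean linear signal of 500.06. The 3′ over 5′ difference of the ACTB probe sets, a sign of RNA length, was 0.524 to 0.648 on the log2 scale on the K-Ras arrays and 0.230 to 0.524 on the EGFR arrays, and that of GAPDH was -0.183 to -0.030 over all arrays. The ranges of ACTB met at 0.524, with lower values in the EGFR mutant lines, and the part of this in the results was not tested. On the array of H1650 labelled SP the signal of ABCG2 was 10.75, below the 11.45 of its MP array, the opposite of the order in the other 3 lines. The difference between the classes uses the mean of both arrays of a line, so it is the same whichever of the 2 arrays of H1650 is the SP array. Results over SP or MP arrays alone, the comparison of SP with MP and the p-values of fits with population as a term do depend on that label.

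The labelled cell type was checked on markers. The 6 epithelial markers were all tested, and KRT8 and KRT18 had signals of 12.88 to 14.32 and 13.64 to 14.33 over all arrays. CDH1, the cadherin of epithelial junctions, had log2 signals of 11.96 and 12.37 in A549, 1.61 and 0.63 in H460, 13.70 and 13.67 in H1650 and 7.62 and 8.08 in H1975, the SP array first here and below. CDH1 was thus far below the median of the probe sets in H460. EPCAM had signals of 10.22 and 10.37 in A549, 5.97 and 5.25 in H460, 13.26 and 13.22 in H1650 and 9.18 and 8.68 in H1975. Among markers of other cell types, leukocyte PTPRC, CD3E, LYZ and ITGAM and endothelial CDH5, VWF, KDR and TEK were below the median signal. These were not tested. CD14 of leukocytes and PECAM1 of endothelium were tested and overlapped between the classes, with differences of -0.21 and -0.15. Of the fibroblast markers, LUM was the 1 whose arrays did not overlap, with signals of 7.52 and 7.96 in A549, 10.27 and 10.53 in H460, 0.11 and 0.28 in H1650 and 5.41 and 6.60 in H1975. COL1A1, COL1A2, COL3A1 and DCN overlapped between the classes, and PDGFRB was below the median signal. In sorted populations, fewer cells of a type and less RNA per cell cannot be told apart.

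Of the 19775 genes with a probe set of their own name, 12300 had a mean log2 signal of at least 6.007, the median over probe sets, and were tested through their brightest probe set. The mean of the SP and the MP array stood for a line, and limma compared 2 lines with 2. At a Benjamini-Hochberg adjusted p under 0.05 it called 0 genes in either direction, which is 0% of those tested. At an unadjusted p under 0.05 there were 1154 genes, 518 higher and 636 lower in the K-Ras mutant lines. The smallest adjusted p was 0.0823, and 30 genes lay under 0.1, of which 23 were higher and 7 lower. An exact permutation test of 2 lines against 2 cannot give a two-sided p under 0.333. A limma fit of all 8 arrays, with population as a term and the line as a random block, called 51 genes higher and 35 lower at an adjusted p under 0.05. That fit assumes 1 correlation, 0.839, between the arrays of a line for every gene. Its p-values rest on the scatter between the SP and the MP array of a line as well as on the spread between lines. Nothing in the labels says that the arrays of a line came from separate cultures. The p-values over lines thus measure the spread between these lines only.

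The second rule asked for the same direction in each pair of a K-Ras with an EGFR mutant line, in both populations. By it, 228 genes (1.85%) were at least 2-fold higher on every K-Ras array than on every EGFR array and 262 (2.13%) at least 2-fold lower, which is called separated here. With no minimum for the gap, 1480 genes (12.0%) did not overlap with the K-Ras arrays higher and 1669 (13.6%) with the K-Ras arrays lower. Differences are given on the log2 scale as the mean of the K-Ras mutant lines minus that of the EGFR mutant lines, with the standard error (SE) of limma over 2 lines a class, and the median over all 12300 genes was -0.02. In 145 of the 490 separated genes the dimmer class had a mean log2 signal under 5, where MAS5 signals scatter widely. For these genes the fold is given below with every linear signal raised to at least 32, which is 5 on the log2 scale.

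The lines differed within the classes as well as between them. A549 and H460 differed at least 2-fold in 22.0% of the tested genes, and H1650 and H1975 in 26.8%. The 4 pairs across the classes differed in 25.9% (A549 and H1650), 28.3% (A549 and H1975), 31.0% (H460 and H1650) and 30.8% (H460 and H1975). By this count A549 and H1650 differed in slightly fewer genes than the EGFR mutant lines did. The correlation across genes, which are not independent replicates, ordered the pairs otherwise, with 0.822 for A549 and H460, 0.789 for H1650 and H1975 and 0.719 to 0.779 for the pairs across the classes. The SP and the MP array of a line differed at least 2-fold in 374 to 527 genes. The difference between the classes was also compared between SP and MP by limma on the SP minus MP value of each line. At an adjusted p under 0.05 it called 0 genes, with 595 at an unadjusted p under 0.05.

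**Figure D1:**
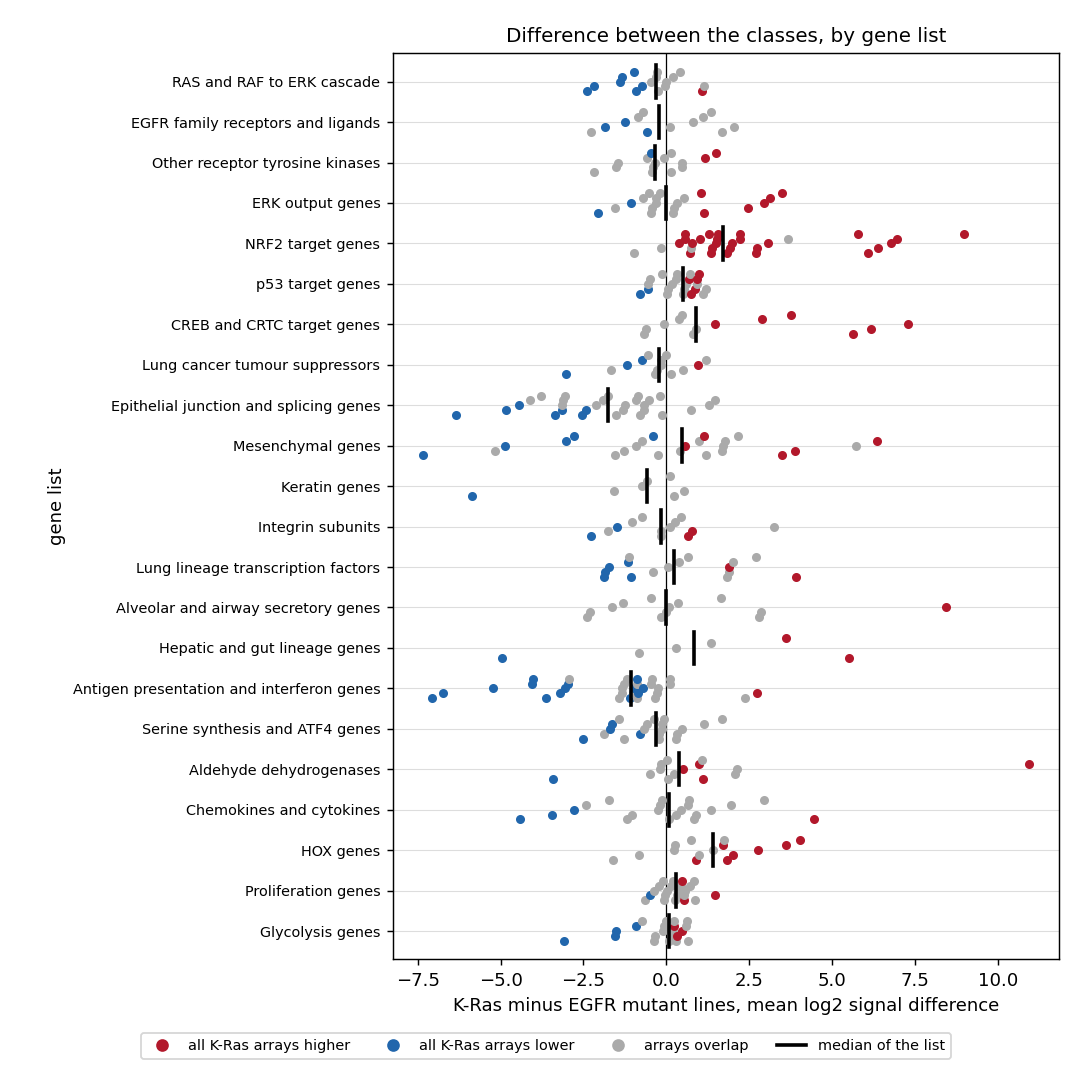
Each point is 1 tested gene of 1 list, placed by the mean log2 signal of the K-Ras mutant lines minus that of the EGFR mutant lines (x axis), with the lists on the y axis. Red and blue points are genes whose K-Ras arrays all lay above or all lay below the EGFR arrays, grey points are genes whose arrays overlapped, and the black bar is the median of the list, which was 1.69 for the NRF2 target genes and -1.06 for the interferon genes.

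None of the genes of the RAS cascade was separated, against 1.85% higher and 2.13% lower of all genes, but many lay lower on every K-Ras array. Of the 25 genes on the list 17 were tested, 2 were below the median signal and 6 had no named probe set here. Of the 17, 1 did not overlap with the K-Ras arrays higher (5.88%, against 12.0% of all genes) and 7 with the K-Ras arrays lower (41.2%, against 13.6%), and the median difference was -0.30 against -0.02 over all genes. HRAS, a RAS paralog, had log2 signals of 11.17 and 11.20 in A549, 10.50 and 10.66 in H460, 10.49 and 10.59 in H1650 and 9.00 and 8.96 in H1975, highest in A549 and lowest in H1975, with H460 and H1650 at 1 level. Its difference was 1.13 (SE 0.65), with an adjusted p of 0.628. Among the other RAS-like GTPases, MRAS had signals of 8.78 and 8.85 in A549, 6.55 and 5.77 in H460, 9.51 and 9.59 in H1650 and 10.13 and 10.24 in H1975 and a difference of -2.38 (SE 1.00), and every K-Ras array lay below every EGFR array. RRAS2 differed by -1.35 (SE 0.54) in the same direction without overlap, and RRAS by -0.30 (SE 0.35) with overlap.

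Upstream of RAS, the exchange factors SOS1 and SOS2, which load RAS with GTP, lay lower on every K-Ras array, with differences of -0.93 (SE 0.46) and -0.73 (SE 0.43). GAB1, the docking protein that links receptors to SHP2, had signals of 6.78 and 6.32 in A549, 7.56 and 7.21 in H460, 10.11 and 10.21 in H1650 and 8.16 and 8.10 in H1975 and a difference of -2.18 (SE 0.86). SHC1, an adaptor of activated receptors, was the 1 member with higher signals on every K-Ras array, by 1.06 (SE 0.42). GRB2 and PTPN11, which encodes SHP2, overlapped, with differences of 0.20 (SE 0.29) and 0.00 (SE 0.18). Of the kinases, MAPK3, which encodes ERK1, lay lower on every K-Ras array with a difference of -0.96 (SE 0.43), and ARAF, MAP2K1 and MAP2K2 overlapped, with differences of 0.40 (SE 0.46), -0.04 (SE 0.37) and -0.28 (SE 0.70). RASAL2, a GTPase-activating protein that switches RAS off, had signals of 9.31 and 9.29 in A549, 8.57 and 8.19 in H460, 10.40 and 10.30 in H1650 and 10.06 and 10.21 in H1975 and the smallest adjusted p of the list, 0.506. LZTR1 and SHOC2 overlapped, with differences of -0.45 (SE 0.47) and -0.25 (SE 0.31). NF1 and RASGRP1 were below the median signal.

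EGFR itself did not divide the classes. Its log2 signals were 11.59 and 11.68 in A549, 10.64 and 10.17 in H460, 13.16 and 13.11 in H1650 and 10.53 and 10.71 in H1975, highest in H1650 and nearly the same in H1975 as in H460, so that the classes overlapped. The difference was -0.86 (SE 0.97) with an adjusted p of 0.803, and all 6 probe sets of the gene had the same direction. Of the 15 genes of the family list 12 were tested, 1 was below the median signal and 2 had no named probe set here. None was separated, against 1.85% higher and 2.13% lower of all genes, and the median difference was -0.22. ERBB2 and ERBB3, the partner receptors, differed by -0.70 (SE 0.62) and 0.13 (SE 1.84), and ERBB4 was below the median signal. Among the ligands, HBEGF lay lower on every K-Ras array, with signals of 8.75 and 9.39 in A549, 9.79 and 9.81 in H460, 10.68 and 10.91 in H1650 and 12.03 and 11.51 in H1975 and a difference of -1.85 (SE 0.52). TGFA was highest in H1650 and EREG highest in A549, and EREG, TGFA, BTC, EGF and NRG1 each overlapped between the classes.

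NRG1, the ligand of ERBB3 and ERBB4, had signals of 12.02 and 11.73 in A549, 10.13 and 9.99 in H460, 8.55 and 8.31 in H1650 and 10.26 and 9.98 in H1975 and was lowest in H1650. EREG had signals of 12.31 and 11.90 in A549, 3.50 and 5.18 in H460, 5.93 and 7.15 in H1650 and 7.92 and 7.48 in H1975, so that A549 alone carried a bright signal. Of the 3 proteins of the list that restrain the receptor, CBL, the ubiquitin ligase that removes it from the surface, lay lower on every K-Ras array, with signals of 9.84 and 10.18 in A549, 9.91 and 10.02 in H460, 11.24 and 11.09 in H1650 and 11.25 and 11.38 in H1975. Its difference was -1.25 (SE 0.31), and all 4 of its probe sets had that direction. ERRFI1, a direct inhibitor of the kinase, differed by -0.57 (SE 0.21) without overlap. LRIG1 overlapped, with a difference of 1.35 (SE 1.67), and was lowest in H1650.

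Among other receptor tyrosine kinases, none of the 15 tested of 24 was separated, 7 were below the median signal and 2 had no named probe set here. Over all genes 1.85% were separated higher and 2.13% lower. The median difference was -0.35. IGF1R, the receptor of insulin-like growth factors, had higher signals on every K-Ras array, 11.76 and 11.88 in A549, 11.89 and 11.84 in H460, 9.86 and 9.62 in H1650 and 11.08 and 10.80 in H1975, and a difference of 1.50 (SE 0.49). FGFR3 had the same direction by 1.16 (SE 0.42), and EPHB4 the opposite by -0.47 (SE 0.34), both without overlap. MET and AXL, both receptors known for resistance to EGFR inhibitors, had bright signals that overlapped, with differences of -0.40 (SE 0.24) and -0.06 (SE 0.43). MST1R and INSR also overlapped, with differences of -1.45 (SE 1.08) and -1.53 (SE 1.38).

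Genes that ERK induces went in both directions. All 20 genes of the list were tested. Of them 2 were separated higher and 1 lower, against 1.85% and 2.13% of all genes. Arrays did not overlap in 6 with the K-Ras arrays higher (30%, against 12.0%) and in 2 with them lower (10%, against 13.6%), and the median difference was -0.005. DUSP4, a nuclear phosphatase that inactivates ERK, had log2 signals of 12.66 and 12.56 in A549, 12.73 and 12.60 in H460, 9.06 and 9.41 in H1650 and 9.48 and 8.66 in H1975. The K-Ras arrays lay between 12.56 and 12.73, and the nearest EGFR array lay 3.08 below them. The difference was 3.49 (SE 0.30), a fold of 11.2, with an adjusted p of 0.0905 over lines and 0.0287 with the line as a random block, and all 3 probe sets had that direction.

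DUSP6, the cytoplasmic phosphatase specific for ERK, had signals of 9.89 and 9.48 in A549, 10.02 and 10.45 in H460, 7.72 and 8.50 in H1650 and 5.54 and 6.34 in H1975 and a difference of 2.94 (SE 0.86). Its gap of 0.98 was just short of separation. ETV4, 1 of the 3 ETS factors of the PEA3 group that ERK induces, had signals of 9.17 and 9.16 in A549, 9.80 and 10.07 in H460, 6.68 and 6.12 in H1650 and 6.29 and 6.55 in H1975, a difference of 3.14 (SE 0.52) and a fold of 8.82. ETV5 and ETV1 did not overlap either, with differences of 1.04 (SE 0.37) and 2.48 (SE 1.26), and the latter was bright in H460. SPRY4, a feedback inhibitor of receptor signalling, differed by 1.14 (SE 0.54) without overlap.

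Other members had the opposite order or overlapped. FOS had signals of 9.81 and 10.31 in A549, 10.10 and 10.41 in H460, 11.69 and 11.74 in H1650 and 12.90 and 12.57 in H1975 and a difference of -2.06 (SE 0.44), separated with the EGFR arrays higher. MAFF lay lower on every K-Ras array with a difference of -1.07 (SE 0.39). EGR1, MYC, IER3 and PHLDA1 overlapped, with differences of -1.56 (SE 0.80), -0.51 (SE 0.66), -0.44 (SE 0.39) and -0.30 (SE 0.26). DUSP5, another ERK phosphatase, overlapped as well, with a difference of -0.45 (SE 0.66). Of the feedback inhibitors, SPRY1 and SPRY2 overlapped with differences of -0.30 (SE 0.51) and 0.33 (SE 0.36), and SPRED1, SPRED2 and SPRED3 with 0.24 (SE 0.46), -0.20 (SE 0.61) and 0.19 (SE 0.55). CCND1, cyclin D1, and FOSL1 overlapped too, with 0.53 (SE 0.59) and -0.71 (SE 0.53).

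**Figure D2:**
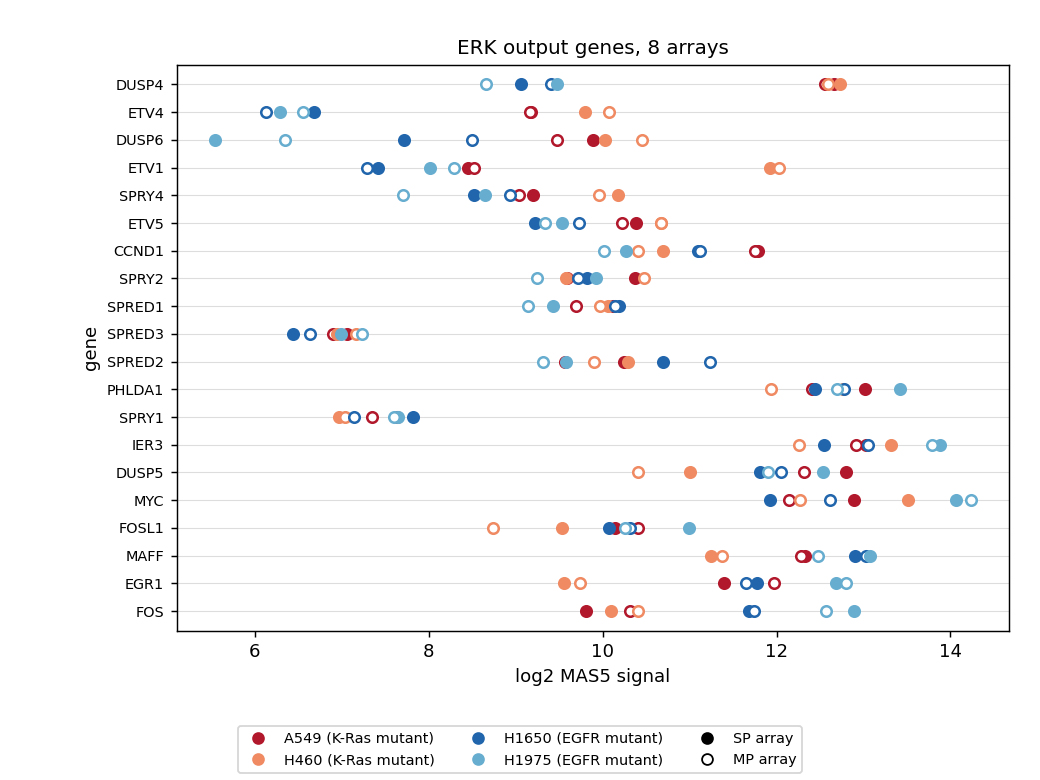
The log2 MAS5 signal (x axis) of the 20 ERK output genes (y axis) is shown on the 8 arrays, with K-Ras mutant lines in red and orange, EGFR mutant lines in blue, SP arrays filled and MP arrays open. The 4 K-Ras points of DUSP4 lie between 12.56 and 12.73, right of the EGFR points at 8.66 to 9.48, while the points of FOS lie in the reverse order.

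The NRF2 target genes had the largest share of separated genes of the lists. Of the 34 genes 30 were tested, 1 was below the median signal and 3 had no named probe set here. Of the 30, 16 were separated higher and 0 lower, 26 did not overlap with the K-Ras arrays higher and 0 lower, and the median difference was 1.69. Over all genes 1.85% were separated higher and 12.0% did not overlap in that direction. With the line as a random block, 9 members had an adjusted p under 0.05, all higher. Without each line in turn 16 to 19 members were separated higher, while the count over all genes was 507 to 637. On the SP arrays alone, and on the MP arrays alone, 16 members were separated. A gene separated over all arrays stays so in any part of them, so these counts could not fall below 16.

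Among the members, ALDH3A1, the aldo-keto reductases and the transporter ABCC2 had the widest gaps, of 4.73 to 7.72 on the log2 scale, and the next was 1.96 for PGD. ALDH3A1, which oxidises aromatic and fatty aldehydes, had log2 signals of 14.07 and 14.09 in A549, 13.15 and 13.19 in H460, 5.43 and 4.05 in H1650 and 4.59 and 4.56 in H1975. It was among the brightest genes in the K-Ras mutant lines and near or below 5 in the EGFR mutant lines, and with the floor at 32 its fold was 367. AKR1B10, an aldo-keto reductase that acts on retinal, had signals of 14.47 and 14.55 in A549, 14.01 and 14.08 in H460, 8.61 and 9.12 in H1650 and 7.27 and 7.81 in H1975, a difference of 6.08 (SE 0.54) and a fold of 67.5.

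The 3 aldo-keto reductases of the AKR1C group, which act on steroids and prostaglandins, lay apart in the same way. AKR1C1 had signals of 13.77 and 13.93 in A549, 13.82 and 13.72 in H460, 7.49 and 7.10 in H1650 and 8.60 and 8.99 in H1975. AKR1C2 had signals of 13.96 and 13.99 in A549, 13.52 and 13.48 in H460, 6.80 and 6.52 in H1650 and 7.82 and 8.29 in H1975, and AKR1C3 of 14.13 and 14.20 in A549, 13.70 and 13.74 in H460, 7.97 and 6.74 in H1650 and 6.04 and 7.26 in H1975. Their folds with the floor were 54.5, 83.4 and 123. The transcripts are nearly identical and probe sets may share targets, so the 3 values are uncertain as separate genes. AKR1C3 and ALDH3A1 had the smallest adjusted p of the list, 0.0823 for both.

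CBR1, a carbonyl reductase, had signals of 11.22 and 11.29 in A549, 10.95 and 10.95 in H460, 9.84 and 9.80 in H1650 and 9.87 and 9.80 in H1975 and a difference of 1.28 (SE 0.33). NQO1, the quinone reductase often used as the readout of NRF2, did not overlap but differed less, with signals of 13.98 and 14.10 in A549, 14.14 and 14.09 in H460, 13.60 and 13.53 in H1650 and 12.66 and 12.46 in H1975 and a difference of 1.02 (SE 0.36). It was already bright in H1650. UGDH, which makes the sugar donor for glucuronidation, had signals of 13.40 and 13.56 in A549, 13.65 and 13.59 in H460, 11.23 and 11.44 in H1650 and 11.82 and 11.82 in H1975 and a fold of 3.92. EPHX1, the microsomal epoxide hydrolase, differed by 2.21 (SE 0.57), and PIR, which encodes pirin, by 2.21 (SE 0.56), both separated.

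Glutathione synthesis and recycling followed. SLC7A11, the cystine importer that feeds glutathione synthesis, had signals of 13.31 and 13.21 in A549, 13.23 and 13.43 in H460, 11.30 and 11.77 in H1650 and 9.82 and 9.37 in H1975 and a fold of 6.63. GSR, which reduces oxidised glutathione, had signals of 12.29 and 12.07 in A549, 11.89 and 12.07 in H460, 10.31 and 10.30 in H1650 and 10.16 and 10.18 in H1975, with the classes tight and apart, and a difference of 1.84 (SE 0.28). GCLC and GCLM, the catalytic and the modifier subunit of the ligase that makes the first step, did not overlap but fell short of separation, with differences of 1.51 (SE 0.47) and 1.34 (SE 0.65). GCLM had signals of 13.30 and 13.18 in A549, 12.83 and 12.71 in H460, 12.55 and 12.58 in H1650 and 11.05 and 10.48 in H1975, so that H1650 stood just under H460. GPX2 was the exception among the glutathione genes, with signals of 13.68 and 13.88 in A549, 5.20 and 4.09 in H460, 5.51 and 5.38 in H1650 and 5.55 and 5.80 in H1975, bright in A549 alone.

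The list also held enzymes of the pentose phosphate pathway and malic enzyme. PGD, the second dehydrogenase of that pathway, had signals of 13.51 and 13.59 in A549, 13.15 and 13.19 in H460, 11.19 and 10.91 in H1650 and 10.49 and 10.07 in H1975. The difference was 2.70 (SE 0.36), a fold of 6.48, with an adjusted p of 0.186 over lines and 0.0167 with the line as a random block. TALDO1, transaldolase of the same pathway, had signals of 13.55 and 13.60 in A549, 13.46 and 13.51 in H460, 11.95 and 11.82 in H1650 and 12.13 and 12.15 in H1975 and a fold of 2.87. ME1, the cytosolic malic enzyme, had signals of 12.70 and 12.73 in A549, 12.78 and 12.77 in H460, 10.82 and 10.75 in H1650 and 11.61 and 11.60 in H1975 and a difference of 1.55 (SE 0.35). TKT, transketolase, did not overlap and differed by 0.76 (SE 0.23).

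The thioredoxin system did not overlap and had small differences between bright signals. TXNRD1, thioredoxin reductase, had signals of 13.94 and 14.09 in A549, 14.03 and 13.94 in H460, 13.30 and 13.38 in H1650 and 13.32 and 13.18 in H1975 and a difference of 0.71 (SE 0.14). TXN, PRDX1 and SRXN1 differed by 0.55 (SE 0.13), 0.56 (SE 0.16) and 1.39 (SE 0.38). FTL, the ferritin light chain, differed by 0.38 (SE 0.12). All 5 lay higher on every K-Ras array.

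The list held 3 ABC transporters. ABCC2, which exports glutathione and glucuronide conjugates, had signals of 11.20 and 10.95 in A549, 10.55 and 10.91 in H460, 3.26 and 5.66 in H1650 and 2.64 and 4.93 in H1975 and a fold of 53.3 with the floor. ABCB6, a porphyrin transporter, was separated with a fold of 8.42. ABCC3 did not overlap and differed by 1.92 (SE 0.78). The members that overlapped between the classes were HMOX1, OSGIN1, GPX2 and TRIM16L. HMOX1, heme oxygenase, had signals of 11.85 and 11.46 in A549, 12.37 and 10.10 in H460, 12.26 and 13.16 in H1650 and 13.29 and 11.04 in H1975, with over 2 log2 units between the arrays of H460 and of H1975, and its difference was -0.99 (SE 0.32). OSGIN1 differed by 0.73 (SE 0.92) and TRIM16L by -0.16 (SE 0.49). CYP4F11, a fatty acid hydroxylase below the median signal, was not tested and had signals of 7.08 and 7.24 in A549, 9.61 and 9.77 in H460, 2.26 and 1.49 in H1650 and 1.03 and 0.89 in H1975.

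**Figure D3:**
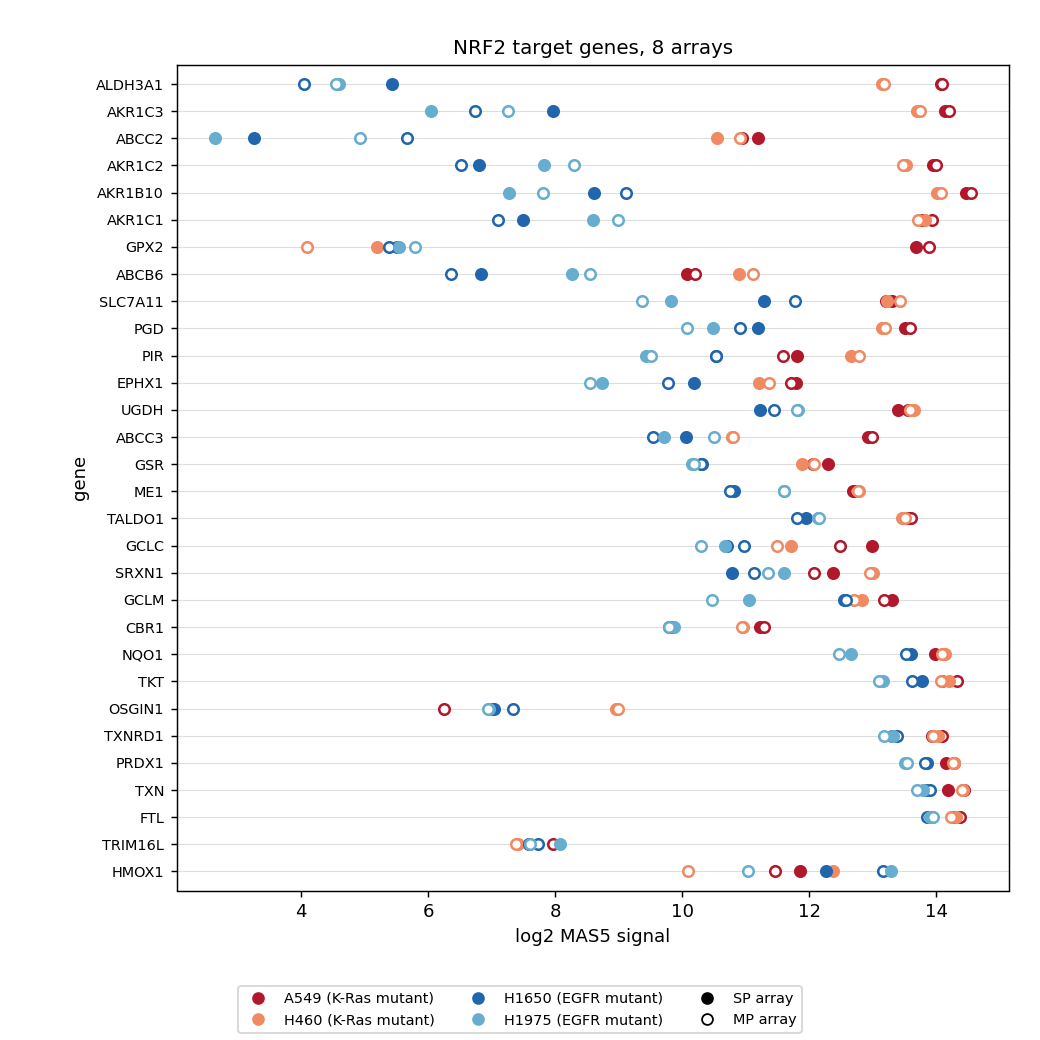
The log2 MAS5 signal (x axis) of the 30 NRF2 target genes tested (y axis), ordered by the difference between the classes, is shown on the 8 arrays, with K-Ras mutant lines in red and orange, EGFR mutant lines in blue, SP arrays filled and MP arrays open. In 26 genes every K-Ras point lies right of every EGFR point, and the exceptions are GPX2, OSGIN1, TRIM16L and HMOX1.

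CREB and CRTC target genes were less uniform. Of 20 genes 13 were tested, 6 were below the median signal and 1 had no named probe set here. Of the 13, 4 were separated higher and 0 lower, against 1.85% and 2.13% of all genes, 6 did not overlap with the K-Ras arrays higher and 0 lower, against 12.0% and 13.6%, and the median difference was 0.90. INSL4, an insulin-like peptide of the placenta, had log2 signals of 12.78 and 13.36 in A549, 10.70 and 10.76 in H460, 3.99 and 5.60 in H1650 and 4.08 and 4.76 in H1975. The K-Ras arrays were bright, the EGFR arrays were near or below 5, and the fold with the floor was 108. Its adjusted p was 0.163 over lines and 0.0127 with the line as a random block. PTGS2, the inducible cyclooxygenase, had signals of 13.64 and 13.36 in A549, 9.55 and 8.82 in H460, 5.41 and 5.53 in H1650 and 4.55 and 5.20 in H1975 and a fold of 66.7, with A549 well above H460.

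CPS1, the first enzyme of the urea cycle, had signals of 11.41 and 11.92 in A549, 13.61 and 13.61 in H460, 3.56 and 4.96 in H1650 and 9.69 and 9.82 in H1975. H1975 lay between H1650 and the K-Ras mutant lines, and the fold was 38.3. PDE4D, a phosphodiesterase that degrades cyclic AMP, had signals of 11.61 and 11.07 in A549, 11.31 and 11.13 in H460, 8.10 and 9.15 in H1650 and 8.75 and 7.60 in H1975, a difference of 2.88 (SE 0.39) and 5 of 5 probe sets in that direction. PDE4B, its close relative, had signals of 11.30 and 8.79 in A549, 10.49 and 10.01 in H460, 6.52 and 8.07 in H1650 and 5.65 and 5.27 in H1975, in which the arrays of A549 differed by over 2 log2 units, and it did not overlap. AVPI1, a gene induced by vasopressin, differed by 1.48 (SE 0.28) without overlap. PPARGC1A, a coactivator of mitochondrial genes, was below the median signal and not tested, with signals of 8.71 and 9.21 in A549, 7.17 and 7.07 in H460, 1.73 and 3.54 in H1650 and 3.18 and 1.23 in H1975.

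The short-lived members of the CREB list did not divide the classes. NR4A1 and NR4A2, orphan nuclear receptors, differed by 0.47 (SE 0.55) and -0.61 (SE 0.43) with overlap. SIK1 differed by -0.06 (SE 0.34) and DUSP1 by -0.67 (SE 0.46). CREM and TFF1 overlapped as well, with differences of 0.90 (SE 0.87) and 0.79 (SE 2.19). NR4A3 had signals of 10.39 and 9.35 in A549, 10.32 and 9.63 in H460, 9.34 and 10.78 in H1650 and 11.39 and 6.68 in H1975 and scattered most between the populations of H1975.

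Interferon-induced genes had the opposite direction. Interferons act through STAT and IRF factors on a common set of antiviral genes, and tumour cells can express part of that set without added interferon. Of the 35 genes on the list of antigen presentation and interferon genes 32 were tested, 1 was below the median signal and 2 had no named probe set here. Of the 32, 9 were separated lower in the K-Ras mutant lines and 0 higher, against 2.13% and 1.85% of all genes. Non-overlapping arrays were lower in 14 and higher in 1, against 13.6% and 12.0%, and the median difference was -1.06. Without each line in turn the count of members separated lower was 11 to 15, while that over all genes was 495 to 835, and it was 9 on the SP arrays alone and 10 on the MP arrays alone. By the rule, the counts of members could not fall below 9. With the line as a random block, BST2, IFIT2 and IFIT3 had an adjusted p under 0.05.

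BST2, the tether that holds budding virus at the membrane, had log2 signals of 5.92 and 6.54 in A549, 4.38 and 4.62 in H460, 12.20 and 12.06 in H1650 and 11.95 and 12.18 in H1975. The fold was 89.5 with the floor, the adjusted p 0.123 over lines and 0.00349 with the line as a random block. IFIT2, which binds viral RNA, had signals of 7.41 and 7.24 in A549, 6.80 and 6.78 in H460, 12.32 and 12.23 in H1650 and 12.21 and 12.38 in H1975 and a difference of -5.22 (SE 0.40). IFIT3 had signals of 8.84 and 8.92 in A549, 8.88 and 9.12 in H460, 12.91 and 12.94 in H1650 and 13.00 and 13.05 in H1975 and a fold of 16.4. In both, the 2 lines of a class lay close together and far from the other class.

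IFIT1 had signals of 8.24 and 9.06 in A549, 6.60 and 7.15 in H460, 11.78 and 11.57 in H1650 and 11.03 and 11.15 in H1975 and a difference of -3.62 (SE 0.72). ISG15, the ubiquitin-like modifier, had signals of 9.69 and 10.31 in A549, 8.45 and 9.04 in H460, 12.34 and 12.01 in H1650 and 12.65 and 12.73 in H1975 and a difference of -3.06 (SE 0.54). IFI27 had signals of 7.59 and 8.77 in A549, 2.42 and 5.06 in H460, 13.27 and 13.31 in H1650 and 12.72 and 12.86 in H1975, with H460 near or below 5, and a fold of 86.5 with the floor. In all of these the EGFR mutant lines lay close to each other while the K-Ras mutant lines differed in how far below they were.

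IFI44 differed by -2.95 (SE 0.72), separated. STING1, the adaptor that senses cyclic dinucleotides from cytosolic DNA, had signals of 6.70 and 6.42 in A549, 5.60 and 6.17 in H460, 9.10 and 9.07 in H1650 and 9.61 and 9.94 in H1975 and a difference of -3.21 (SE 0.56), and CGAS, the enzyme that makes the dinucleotide, differed by -0.88 (SE 0.50) with overlap. OAS1, an RNA-sensing synthetase, was the exception, with signals of 10.62 and 10.52 in A549, 11.97 and 12.07 in H460, 9.39 and 9.65 in H1650 and 7.38 and 7.79 in H1975 and a difference of 2.74 (SE 0.88) in favour of the K-Ras mutant lines. MX1 and IFI6 were bright in H1650 but overlapped, with differences of -2.94 (SE 1.59) and -1.35 (SE 1.02). IRF9, which completes the factor that drives these genes, differed by -0.35 (SE 0.45) with overlap.

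The class I antigen presentation machinery divided less. B2M, the light chain of class I molecules, had signals of 13.75 to 14.29 and a difference of 0.10 (SE 0.17). HLA-B and HLA-C had signals of 11.19 and 11.65 in A549, 13.65 and 13.63 in H460, 13.46 and 13.23 in H1650 and 13.57 and 13.86 in H1975 and of 11.61 and 12.20 in A549, 13.56 and 13.62 in H460, 13.75 and 13.68 in H1650 and 13.92 and 14.08 in H1975, so that A549 alone was dim, and the near-identical class I transcripts make these values uncertain as separate genes. TAP2 and TAPBP, which load peptide, lay lower on every K-Ras array with differences of -0.88 (SE 0.44) and -0.99 (SE 0.40). TAP1, PSMB8 and PSMB9 overlapped, with A549 lowest in each. CD74, the invariant chain of class II molecules, was separated, at most 4.91 on the K-Ras arrays and at 9.29 and 9.40 in H1650 and 6.44 and 7.56 in H1975, with a fold of 9.01 with the floor. IFITM2 and IFITM3 did not overlap and differed by -0.69 (SE 0.33) and -0.85 (SE 0.41).

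**Figure D4:**
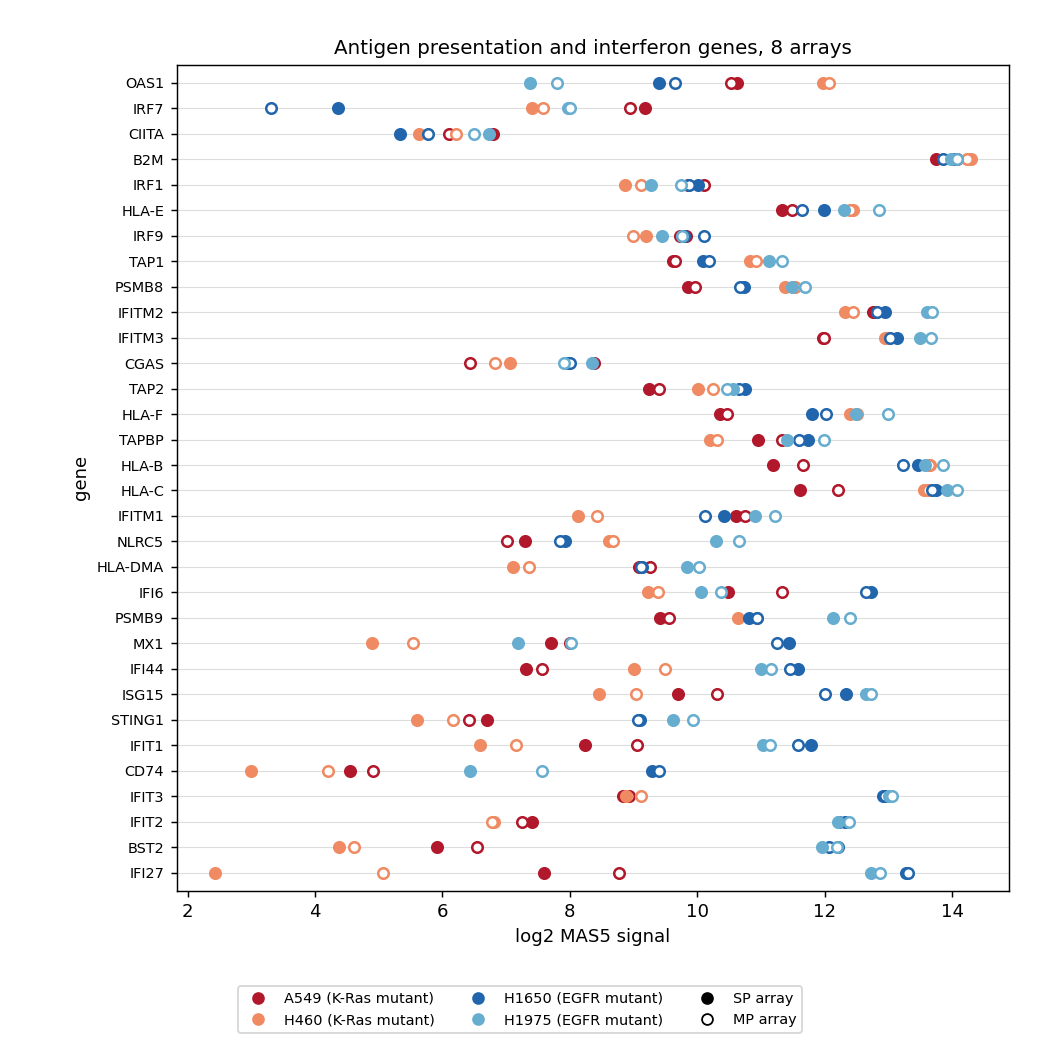
The log2 MAS5 signal (x axis) of the 32 tested genes of antigen presentation and interferon response (y axis), ordered by the difference between the classes, is shown on the 8 arrays, with K-Ras mutant lines in red and orange, EGFR mutant lines in blue, SP arrays filled and MP arrays open. BST2, IFIT2 and IFIT3 have all EGFR points between 11.95 and 13.05 and all K-Ras points at or below 9.12, while OAS1 has the reverse order.

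The epithelial junction and splicing genes had lower means in the K-Ras mutant lines, chiefly with overlap. Of 36 genes 29 were tested, 3 were below the median signal and 4 had no named probe set here. Of the 29, 26 had a lower mean, 7 did not overlap with the K-Ras arrays lower (against 13.6% of all genes) and 0 higher, and 2 were separated lower (against 2.13%). The median difference was -1.76, and it was -2.91 without A549, -0.43 without H460, -0.35 without H1650 and -3.93 without H1975. CLDN4, a claudin of tight junctions, had log2 signals of 5.70 and 2.51 in A549, 4.80 and 2.87 in H460, 11.67 and 11.88 in H1650 and 9.04 and 8.68 in H1975 and a fold of 35.4 with the floor. CLDN7 had signals of 5.96 and 5.65 in A549, 6.09 and 5.96 in H460, 12.41 and 12.53 in H1650 and 9.01 and 9.00 in H1975 and a fold of 28.4. In both, H1650 was brightest, H1975 intermediate and both K-Ras mutant lines near the floor.

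For most of the list the lines rather than the classes differed, with H1650 high and H460 low. DSP, desmoplakin of desmosomes, had signals of 12.93 and 13.05 in A549, 5.47 and 4.52 in H460, 13.56 and 13.59 in H1650 and 13.19 and 13.35 in H1975, dim in H460 alone, and a difference of -4.43 (SE 2.68). GRHL1 and CGN did not overlap and differed by -3.16 (SE 1.13) and -2.54 (SE 1.08). OVOL1 and PRSS8 lay lower on every K-Ras array with differences of -2.41 (SE 1.23) and -3.36 (SE 1.79), with H1975 close to A549. TJP1, JUP and DSG2 were bright on most arrays and overlapped, with differences of -0.14 (SE 0.30), 1.29 (SE 1.02) and -0.53 (SE 0.30). ESRP1, the epithelial splicing factor, was below the median signal and not tested, with signals of 3.21 and 2.94 in A549, 3.37 and 2.93 in H460, 11.03 and 10.93 in H1650 and 5.60 and 4.85 in H1975.

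The mesenchymal genes divided in both directions. Of 26 genes 24 were tested, 3 were separated higher and 3 lower, against 1.85% and 2.13% of all genes, and 5 did not overlap in each direction, against 12.0% and 13.6%. The median difference was 0.48, and it was 0.12 without A549 and -0.004 without H1650. TCF4, an E-protein factor, had signals of 10.85 and 10.38 in A549, 11.90 and 11.81 in H460, 7.21 and 6.02 in H1650 and 2.68 and 3.57 in H1975, and all 6 of its probe sets were higher in the K-Ras mutant lines. TWIST2, a factor of mesenchymal cells, had signals of 9.68 and 9.56 in A549, 9.84 and 10.48 in H460, 6.14 and 6.87 in H1650 and 5.46 and 5.62 in H1975, a difference of 3.87 (SE 0.58) and an adjusted p of 0.221 over lines and 0.0385 with the line as a random block. S100A4, a calcium-binding protein of motile cells, had signals of 14.30 and 14.50 in A549, 13.65 and 13.62 in H460, 9.39 and 8.88 in H1650 and 12.03 and 11.83 in H1975 and a fold of 11.2.

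SPARC, a matrix protein, had the opposite order with signals of 6.32 and 6.69 in A549, 0.68 and 1.64 in H460, 11.96 and 12.83 in H1650 and 9.84 and 10.00 in H1975 and a fold of 42.4 with the floor. COL5A1, a chain of collagen V, had signals of 8.83 and 9.20 in A549, 4.12 and 4.99 in H460, 11.76 and 11.12 in H1650 and 11.55 and 12.13 in H1975. CCN1, a matricellular protein induced by YAP, had signals of 10.72 and 11.86 in A549, 9.50 and 10.24 in H460, 13.22 and 12.98 in H1650 and 13.54 and 13.72 in H1975 and a difference of -2.78 (SE 0.55). VIM, vimentin, was lowest in H1650, with signals of 13.50 and 13.61 in A549, 13.83 and 13.77 in H460, 10.70 and 9.51 in H1650 and 13.75 and 13.87 in H1975. FN1 and CALD1 did not overlap but differed by less than 2-fold, with differences of 0.56 (SE 0.19) and -0.40 (SE 0.19), and SNAI1 lay lower on every K-Ras array with a difference of -3.03 (SE 1.25). TGFB1 lay higher on every K-Ras array by 1.14 (SE 0.59).

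Of the 17 keratins on the list 7 were tested, 5 were below the median signal and 5 had no named probe set here. Of the 7, 1 was separated lower and 0 higher, against 2.13% and 1.85% of all genes. KRT16, a keratin of stressed epithelium, was the 1 separated, with signals of 5.79 and 5.63 in A549, 3.68 and 0.70 in H460, 10.44 and 11.21 in H1650 and 8.96 and 8.62 in H1975 and a fold of 21.9 with the floor. KRT19 and KRT80 overlapped, with differences of 0.10 (SE 0.91) and -0.58 (SE 0.56), and KRT7 was dim in H460, with signals of 13.87 and 14.04 in A549, 9.17 and 9.25 in H460, 13.41 and 13.33 in H1650 and 12.88 and 13.05 in H1975. Of 20 integrin subunits 13 were tested, 6 were below the median signal and 1 had no named probe set here. None of the 13 was separated, against the same shares of all genes. ITGB5 lay higher on every K-Ras array with a difference of 0.77 (SE 0.24) and ITGA5, the fibronectin receptor, lower with a difference of -1.50 (SE 0.70). ITGB3 lay lower with a difference of -2.28 (SE 1.09) and ITGA10 higher with a difference of 0.64 (SE 0.56), both without overlap and from dim signals. The median difference was -0.58 for the keratins and -0.16 for the integrins.

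Lineage factors of the lung varied by line. Of 24 genes 16 were tested, 7 were below the median signal and 1 had no named probe set here. Of the 16, 2 did not overlap with the K-Ras arrays higher, a share near the 12.0% of all genes, and 5 lower, against 13.6%, and the median difference was 0.22. NKX2-1, the factor that marks alveolar adenocarcinoma, was below the median signal, so none of these lines had a clear signal of it. CEBPD was separated lower, with signals of 10.19 and 10.24 in A549, 9.97 and 10.01 in H460, 11.47 and 11.55 in H1650 and 12.09 and 12.68 in H1975 and a fold of 3.6. ID1, an inhibitor of helix-loop-helix factors, lay lower on every K-Ras array with a difference of -1.72 (SE 0.41), and IRX3, FOXP1 and IRX5 did so with differences of -1.89 (SE 0.65), -1.15 (SE 0.52) and -1.06 (SE 0.41). FOXA1 and SOX4 lay higher, by 3.91 (SE 1.43) and 1.90 (SE 0.53).

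Of the secretory genes of airway and alveolus 13 of 27 were tested, 13 were below the median signal and 1 had no named probe set here. Of the 13 tested, 1 was separated higher and 0 lower, against 1.85% and 2.13% of all genes. AGR2, a disulfide isomerase of mucus-producing cells, was the 1 separated, with signals of 13.99 and 14.04 in A549, 13.94 and 13.88 in H460, 8.06 and 7.93 in H1650 and 2.95 and 3.20 in H1975 and a fold of 177 with the floor. The surfactant genes SFTPB and SFTPC had dim signals on all arrays, with differences of 0.08 (SE 0.49) and -0.46 (SE 0.48). LCN2 and SLPI were dim in H460, and MUC1 overlapped with a difference of -1.64 (SE 0.79). The median difference was -0.02. Of 20 genes of the hepatic and gut lineage 6 were tested, 11 were below the median signal and 3 had no named probe set here. Of the 6, 1 was separated higher and 0 lower, against the same shares of all genes. FGG, a fibrinogen chain, was separated, with signals of 12.81 and 12.90 in A549, 6.02 and 5.68 in H460, 3.74 and 3.30 in H1650 and 4.04 and 4.27 in H1975, bright in A549 alone. SERPINA1, the trypsin inhibitor of liver and lung, had signals of 5.50 and 6.78 in A549, 2.60 and 4.43 in H460, 8.37 and 7.33 in H1650 and 10.96 and 12.52 in H1975 and did not overlap, with the K-Ras arrays lower, and CDH17 did not overlap either, with signals of 11.71 and 11.54 in A549, 6.17 and 5.37 in H460, 5.16 and 5.36 in H1650 and 4.92 and 4.88 in H1975. HNF4G, below the median signal, had signals of 7.35 and 7.45 in A549, 5.79 and 6.43 in H460, 0.25 and 3.36 in H1650 and -0.74 and 4.29 in H1975.

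Target genes of p53 had mean signals higher in the K-Ras mutant lines in 17 of 22 tested, but none was separated, against 1.85% higher and 2.13% lower of all genes. Of the 26 on the list, 1 was below the median signal and 3 had no named probe set here. Without overlap were 5 higher and 2 lower, against 12.0% and 13.6% of all genes, and the median difference was 0.51. RPS27L, a ribosomal protein paralog, had signals of 13.94 and 14.20 in A549, 13.96 and 13.90 in H460, 13.14 and 13.06 in H1650 and 13.44 and 13.61 in H1975 and a difference of 0.68 (SE 0.20). TRIAP1 and CCNG1, cyclin G1, lay higher on every K-Ras array by 0.87 (SE 0.25) and 0.93 (SE 0.44). CDKN1A, the cell cycle inhibitor p21, had signals of 11.03 and 11.13 in A549, 11.52 and 10.99 in H460, 11.69 and 11.93 in H1650 and 10.72 and 10.14 in H1975 and overlapped, and MDM2, which degrades p53, overlapped with a difference of 0.59 (SE 0.53). SPATA18, below the median signal and not tested, had signals of 6.58 and 7.79 in A549, 7.18 and 6.75 in H460, 2.66 and 4.26 in H1650 and 1.18 and 0.32 in H1975.

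Among the lung cancer tumour suppressors, the transcripts of the genes known to be inactivated in the K-Ras mutant lines were not separated. STK11 had log2 signals of 8.13 and 8.28 in A549, 8.31 and 8.66 in H460, 8.02 and 8.05 in H1650 and 9.15 and 9.24 in H1975 and KEAP1 of 10.70 and 10.17 in A549, 10.73 and 10.64 in H460, 10.44 and 10.67 in H1650 and 11.30 and 11.18 in H1975, with differences of -0.27 (SE 0.58) and -0.34 (SE 0.39). Both overlapped, and neither signal shows whether the protein works. SMARCA4, the ATPase of a chromatin remodeller, had signals of 7.83 and 6.88 in A549, 11.87 and 12.08 in H460, 12.22 and 12.20 in H1650 and 13.18 and 13.10 in H1975, so that A549 alone was dim. CDKN2A, the inhibitor p16, had signals of 5.70 and 6.65 in A549, 5.18 and 6.21 in H460, 5.96 and 5.95 in H1650 and 9.33 and 9.21 in H1975 and a clear signal in H1975 alone. CDKN2B and FHIT had a mean below the median signal and were not tested. CDKN2B nevertheless had signals of 10.57 and 10.51 in H1975, and at most 2.75 on the other arrays.

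Of the other tumour suppressors, NF2, merlin, lay lower on every K-Ras array with a difference of -1.17 (SE 0.38), with 7 of 7 probe sets in that direction, and APC with a difference of -0.73 (SE 0.47). RB1 lay higher by 0.96 (SE 0.49). RBM10 and MTAP were lowest in H1975, with differences of 1.20 (SE 0.91) and -0.16 (SE 1.06). SMARCA2 and ARID1A overlapped, with differences of 0.51 (SE 0.64) and -0.56 (SE 0.45), as did RASSF1, TSC1 and TSC2, with differences of 0.13 (SE 0.47), -0.15 (SE 0.36) and 0.00 (SE 0.46). The list held 18 genes, of which 14 were tested, 2 were below the median signal and 2 had no named probe set here, and its median difference was -0.22.

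Proliferation and glycolysis differed little. All 22 proliferation genes were tested and none was separated, against 1.85% higher and 2.13% lower of all genes, with a median difference of 0.29. CDK1, the mitotic kinase, lay higher on every K-Ras array, with signals of 13.20 and 12.84 in A549, 13.33 and 12.88 in H460, 11.10 and 12.34 in H1650 and 11.80 and 11.20 in H1975 and a difference of 1.45 (SE 0.21). TOP2A and CCNB1 overlapped, with differences of 0.84 (SE 0.34) and 0.55 (SE 0.34). Of 23 glycolysis genes 21 were tested and none was separated, against the same shares of all genes, with a median difference of 0.09. HK2, hexokinase 2, had signals of 6.70 and 7.06 in A549, 11.04 and 11.10 in H460, 12.08 and 12.13 in H1650 and 11.85 and 12.16 in H1975, lowest in A549, and did not overlap. LDHA and LDHB, lactate dehydrogenase, lay higher on every K-Ras array by 0.33 (SE 0.14) and 0.46 (SE 0.13). HK1 and PFKFB3, the latter the kinase that activates phosphofructokinase, lay lower with differences of -0.93 (SE 0.28) and -1.52 (SE 0.56).

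Serine synthesis and ATF4 genes had a median difference of -0.31 over 20 tested of 21, with 15 of 20 lower on average. Of the 20, 1 was separated lower and 0 higher, against 2.13% and 1.85% of all genes. CBS, which makes cystathionine, was the 1 separated, with signals of 8.14 and 8.06 in A549, 8.67 and 8.78 in H460, 10.45 and 10.16 in H1650 and 9.99 and 9.87 in H1975 and a fold of 3.26. ATF3, a stress factor, lay lower on every K-Ras array with a difference of -1.63 (SE 0.36), and so did ALDH1L2 and ASNS, asparagine synthetase, with differences of -2.52 (SE 0.67) and -0.80 (SE 0.26). PHGDH, the first enzyme of serine synthesis, had signals of 9.31 and 9.18 in A549, 10.79 and 10.90 in H460, 11.23 and 11.08 in H1650 and 9.83 and 9.59 in H1975 and overlapped. PSAT1 and ATF4 overlapped, with differences of -0.06 (SE 0.21) and -0.12 (SE 0.34).

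All 16 aldehyde dehydrogenases of the list had a named probe set and 14 were tested. The median difference was 0.37. ALDH1A1, the retinal dehydrogenase used as a marker of stem-like cells, had log2 signals of 14.13 and 14.32 in A549, 11.44 and 12.06 in H460, 2.80 and 1.72 in H1650 and 3.47 and 0.22 in H1975. Every EGFR array was below 5, so the log2 difference of 10.93 (SE 0.96) rests on very dim signals, and with the floor the fold was 254. Its adjusted p was 0.0905 over lines and 0.0446 with the line as a random block. ALDH1A3 had the opposite order, with signals of 8.90 and 8.44 in A549, 5.27 and 5.56 in H460, 11.86 and 11.88 in H1650 and 9.03 and 9.10 in H1975, without overlap. ALDH2 was bright in A549 alone, with signals of 12.94 and 13.22 in A549, 8.19 and 8.31 in H460, 8.72 and 8.28 in H1650 and 8.62 and 8.55 in H1975. ALDH16A1, ALDH3A2 and ALDH7A1 lay higher on every K-Ras array by 1.12 (SE 0.41), 0.99 (SE 0.44) and 0.50 (SE 0.27).

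Of 23 chemokines and cytokines 21 were tested, 1 was separated higher and 1 lower, against 1.85% and 2.13% of all genes, and the median difference was 0.09. CXCL5, a chemokine for neutrophils, had signals of 13.42 and 13.99 in A549, 13.58 and 13.56 in H460, 8.29 and 9.00 in H1650 and 8.73 and 10.73 in H1975, a difference of 4.45 (SE 0.45) and a fold of 21.8. CCL28, a chemokine of mucosal epithelium, had signals of 6.14 and 4.87 in A549, 5.59 and 5.87 in H460, 9.37 and 9.33 in H1650 and 8.56 and 9.00 in H1975 and a fold of 10.7 with the floor. IL6 and CCL5 lay lower on every K-Ras array, IL6 with signals of 8.46 and 8.62 in A549, 10.32 and 10.26 in H460, 11.04 and 11.79 in H1650 and 12.93 and 13.00 in H1975 and CCL5 with a difference of -4.42 (SE 1.48). CXCL1 overlapped at 1 array, with signals of 12.39 and 13.24 in A549, 14.22 and 14.23 in H460, 8.75 and 9.95 in H1650 and 10.86 and 12.69 in H1975. CXCL8 was lowest in H1650 and at 1 level in the other 3 lines, with signals of 12.88 and 12.93 in A549, 13.41 and 13.75 in H460, 8.18 and 9.80 in H1650 and 13.58 and 13.61 in H1975.

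HOX genes, which set position along the body axis, had higher signals in the K-Ras mutant lines in 13 of the 15 tested. Of the 36 on the list 10 were below the median signal and 11 had no named probe set here. Of the 15, 3 were separated higher and 0 lower, against 1.85% and 2.13% of all genes, 7 did not overlap with the K-Ras arrays higher and 0 lower, against 12.0% and 13.6%, and the median difference was 1.41, or 0.99 with the floor of 32. HOXB8 had signals of 9.97 and 9.66 in A549, 7.28 and 7.15 in H460, 4.90 and 3.19 in H1650 and 4.59 and 5.28 in H1975, HOXB7 of 11.39 and 11.35 in A549, 11.03 and 11.02 in H460, 9.54 and 9.75 in H1650 and 5.30 and 5.76 in H1975 and HOXB6 of 8.08 and 7.59 in A549, 7.61 and 7.68 in H460, 6.23 and 6.23 in H1650 and 4.02 and 3.40 in H1975. In HOXB6 and HOXB7, H1650 lay nearer to the K-Ras mutant lines than to H1975. HOXB5 and HOXB9 did not overlap and differed by 2.02 (SE 0.47) and 1.72 (SE 0.51). HOXC6 and HOXC13 overlapped, with differences of 0.99 (SE 0.73) and 0.75 (SE 0.62).

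The 15 genes with the widest gap in each direction were taken from the 490 separated genes, so their order is a description. Genes of the Y chromosome, some of which were separated with the K-Ras arrays higher, and XIST were left out. NRCAM, a neural cell adhesion molecule, led with log2 signals of 12.97 and 12.93 in A549, 12.67 and 12.82 in H460, 1.87 and 4.58 in H1650 and 4.60 and 3.17 in H1975. The EGFR arrays were all below 5, and the fold with the floor was 230.2. Beside ALDH1A1, ALDH3A1, AGR2 and AKR1C3, already described, WDR72, PLA2G4A, SPP1, LGSN, RSPO3, PDE3A, QPCT, SMOC1, LINC00473 and CYFIP2 made up the 15. SPP1, osteopontin, had signals of 12.94 and 13.45 in A549, 14.19 and 14.12 in H460, 4.97 and 5.69 in H1650 and 3.11 and 4.13 in H1975 and an adjusted p of 0.0905 over lines and 0.00174 with the line as a random block. PLA2G4A, the phospholipase that releases arachidonic acid for PTGS2, had signals of 12.49 and 13.04 in A549, 11.74 and 11.98 in H460, 0.28 and 3.66 in H1650 and 2.02 and 4.09 in H1975 and a fold of 159 with the floor.

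RSPO3, an enhancer of Wnt signals, had signals of 12.38 and 12.45 in A549, 12.29 and 12.13 in H460, 4.77 and 1.44 in H1650 and 5.39 and 4.27 in H1975. PDE3A, a phosphodiesterase of cyclic AMP, had signals of 11.05 and 11.17 in A549, 10.52 and 10.86 in H460, 4.00 and 4.68 in H1650 and 3.82 and 3.29 in H1975, and QPCT, glutaminyl cyclase, of 12.45 and 12.99 in A549, 14.19 and 14.22 in H460, 4.25 and 4.72 in H1650 and 4.59 and 6.64 in H1975. SMOC1, a secreted calcium-binding protein, had signals of 10.48 and 11.03 in A549, 11.73 and 11.77 in H460, 4.85 and 3.97 in H1650 and 4.55 and 4.44 in H1975. LINC00473, a long non-coding RNA known to be induced through CRTC, had signals of 10.15 and 9.86 in A549, 10.79 and 10.39 in H460, 1.63 and 2.99 in H1650 and 1.46 and 4.23 in H1975 and a fold of 39.3 with the floor. WDR72, LGSN and CYFIP2 had folds of 106, 41.1 and 36.4 with the floor. In all 15, the 4 K-Ras arrays had signals above 9.

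Among the 15 in the other direction, MYL9, a myosin light chain of contractile cells, had signals of 2.28 and 2.33 in A549, 2.50 and 3.47 in H460, 12.42 and 12.61 in H1650 and 11.62 and 11.58 in H1975 and a fold of 133.1 with the floor. MGP, an inhibitor of calcification, had signals of 0.39 and 0.24 in A549, 1.76 and 0.73 in H460, 13.10 and 12.56 in H1650 and 9.47 and 10.98 in H1975. CDH3, the placental cadherin, had signals of 3.66 and 2.93 in A549, 2.12 and 1.84 in H460, 13.01 and 12.90 in H1650 and 10.06 and 10.16 in H1975 and a fold of 92.4 with the floor. TNC, the matrix protein tenascin C, had signals of 7.24 and 7.92 in A549, -0.15 and 1.34 in H460, 12.34 and 12.26 in H1650 and 12.79 and 12.85 in H1975, in which A549 carried a weak signal and H460 none above 5. DPP4, a peptidase of the cell surface, had signals of 5.96 and 6.84 in A549, 4.69 and 5.07 in H460, 11.38 and 11.02 in H1650 and 11.18 and 11.72 in H1975 and a fold of 48.7 with the floor.

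BST2 and IFIT2 were also among these 15, as was APOBEC3G, a cytidine deaminase that restricts retroviruses, with signals of 4.38 and 1.57 in A549, 3.29 and 4.09 in H460, 9.82 and 10.17 in H1650 and 11.11 and 11.14 in H1975. UCA1, a long non-coding RNA, had signals of 5.74 and 6.28 in A549, 5.20 and 5.11 in H460, 12.97 and 12.75 in H1650 and 11.10 and 10.93 in H1975, and CLIC3, an intracellular channel protein, of 5.92 and 6.81 in A549, 4.27 and 4.10 in H460, 11.77 and 12.04 in H1650 and 11.19 and 11.56 in H1975. B3GALNT1, a glycosyltransferase, had a fold of 16.4 with the floor. Zinc finger genes and a zinc finger antisense transcript made up the rest. ZNF677 had signals of 0.42 and 3.94 in A549, 3.11 and 1.50 in H460, 11.25 and 10.95 in H1650 and 11.11 and 11.25 in H1975, ZNF667-AS1 of 4.05 and 2.59 in A549, 2.74 and 2.23 in H460, 10.55 and 10.31 in H1650 and 11.05 and 11.13 in H1975, and ZNF347 of 3.39 and 3.46 in A549, 4.06 and 3.92 in H460, 8.49 and 8.56 in H1650 and 9.28 and 9.01 in H1975. For ZNF702P, a pseudogene, the fold with the floor was 17.2, and the value is uncertain because related zinc finger transcripts may share its probe set.

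**Figure D5:**
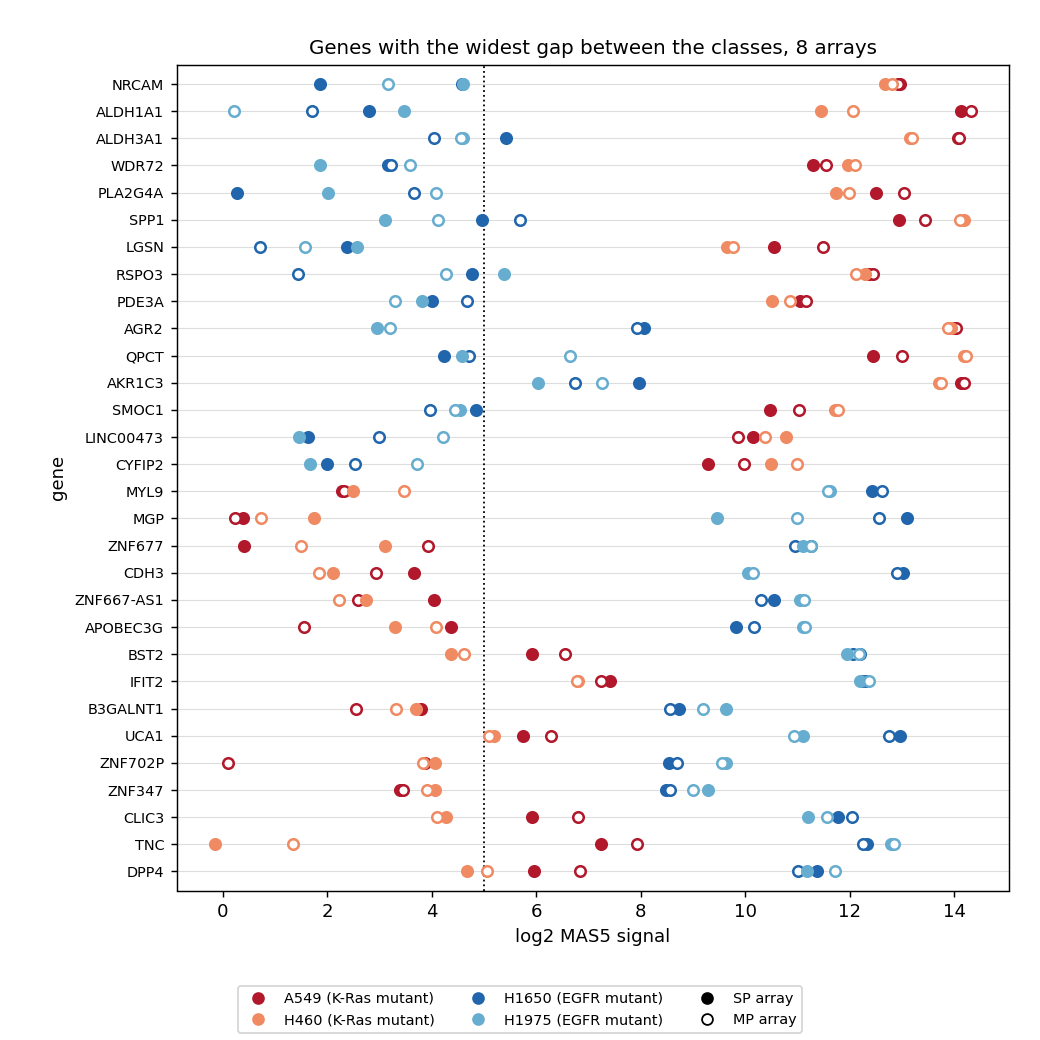
The log2 MAS5 signal (x axis) of the 15 genes with the widest gap in each direction (y axis) is shown on the 8 arrays, with K-Ras mutant lines in red and orange, EGFR mutant lines in blue, SP arrays filled and MP arrays open, and a dotted line at 5. Genes of the Y chromosome and XIST were left out. In the upper 15 genes the EGFR points lie mainly left of the dotted line, and the order of the colours is reversed in the lower 15.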

How the data were processed

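RNA of 8 sorted populations of 4 lung cancer lines was hybridised to HG-U133 Plus 2.0 arrays. The authors made the deposited log2 signals with MAS5 in GCOS 1.4, per the submitters' processing notes, and the linear signals have a trimmed mean of 500.06 on every array. The methods also name mean centring, which these values do not carry. Of 54675 probe sets, 62 are controls, and by the platform annotation 41097 have 1 gene symbol, 1801 several and 11777 none. Each of 19775 genes was represented by its brightest probe set on average, and the 12300 genes with a mean log2 signal of at least 6.007, the median over probe sets, were tested.

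Both populations of each line were averaged, and 2 lines were compared with 2 in limma 3.58.1 (R 4.3.3; trend, Benjamini-Hochberg adjustment, threshold 0.05). Nothing in the labels gives more than 1 culture per line, so the p-values of this comparison measure the spread between lines. Those with the line as a random block also rest on the scatter between the arrays of a line. A gene was called separated where every array of one class lay at least 1 log2 unit from every array of the other. An exact permutation test of 2 lines against 2 cannot go below a two-sided p of 0.333. The 26 gene lists and the members were chosen with earlier results of these data known. Named were the RAS genes and EGFR, 15 genes a direction by gap, and the called members of each list with up to 4 others by p and 4 by signal. Every member with a named probe set of the cascade, EGFR family, tumour suppressor and marker lists was meant to be named as well. Genes of the Y chromosome and XIST were left out of the 15. Other genes named were chosen after their values were seen. Alternatives were the line as a random block, no block, each population alone, a floor of 32, a pseudocount of 16, quantile and median scaling, other filters, probe set choices and gaps, no trend, and leaving out each line. Promoter windows came from RefSeq GRCh38.p14.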

Additional observations from a re-analysis of the deposited data

Results flagged for a closer look

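Of 278 genes named, each with 4 arrays in either class (556 groups), 11 had 1 array far from the other 3 of its class, and chance gives this in about 1 of 20 groups. Each group holds only 2 lines. On the K-Ras arrays, A549 MP stood highest for ALDH7A1, at a log2 signal of 11.72 with the next array at 11.53, and for LDHB, at 14.15 with the next at 14.03. A549 MP stood lowest for KEAP1, at 10.17 with the next array at 10.64, and for ZNF702P, at 0.11 with the next at 3.83, where both signals are dim. A549 SP stood lowest for PRDX1, at 14.16 against 14.26, and for TXN, at 14.19 against 14.40. H460 MP stood highest for ITGA10, at 7.80 against 6.78. On the EGFR arrays, H1650 MP stood highest for IFIH1, at 10.70 against 10.44, and for MET, at 13.22 against 13.16. H1650 SP stood highest for IRX5, at 10.58 against 9.78, and lowest for PDE3B, at 3.57 against 4.82. No gene passed an adjusted p of 0.05 in limma for a class difference that itself differed between SP and MP, and 595 had an unadjusted p under 0.05.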

How the results depend on the processing

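Over lines, limma called 0 genes higher and 0 lower in the K-Ras mutant lines, with 518 and 636 at an unadjusted p under 0.05. It also called 0 with either population alone, the floor, the pseudocount, both scalings, the other filters, no trend, every probe set and each line left out. With the line as a random block on 8 arrays 51 genes were higher and 35 lower, and with no block, which treats the arrays of a line as independent, 592 and 693. The labels match no line of one class with a line of the other, so the 2 classes were compared without pairing. The SP and the MP array of a line were kept together by averaging or by the block.

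Genes separated at least 2-fold numbered 228 higher and 262 lower. These counts were 347 and 401 over the SP arrays alone, 315 and 513 over the MP arrays alone, 101 and 95 with a 4-fold gap, and 1480 and 1669 with any gap. Fewer arrays make the rule easier to meet. Without 1 line the higher count ran from 507 (without H460) to 637 (without H1650), with 581 without A549 and 602 without H1975, and the lower count from 495 (without H460) to 835 (without A549), with 763 without H1650 and 731 without H1975. The other alternatives gave 164 to 313 higher and 204 to 353 lower.

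The median difference of the CREB and CRTC list was 0.90 and became 1.21 over the MP arrays alone, and that of the HOX genes was 1.41 and became 0.99 with the floor, 0.96 with the pseudocount and 0.99 with the mean over probe sets. Leaving out 1 line moved 8 list medians beyond the spread between lines. Without A549 and without H1650 in turn the median was -1.13 and 0.43 for the EGFR family, -0.52 and 0.18 for the other receptor kinases, 1.73 and 0.89 for the CREB and CRTC list and 0.81 and 1.73 for the HOX genes. It was -0.66 without H1975 and 0.77 without H1650 for the lung transcription factors, and -0.0031 without H1975 and 0.45 without H1650 for the proliferation genes. It was -0.62 without A549 and 2.41 without H460 for the hepatic and gut genes, and -2.02 without A549 and 0.67 without H460 for the lung epithelium markers. Others moved by over 1.5 times within that spread, so that the median lay between -3.93 (without H1975) and -0.35 (without H1650) for the epithelial junction genes, -0.004 (without H1650) and 0.76 (without H1975) for the mesenchymal genes, -1.08 (without H1975) and 0.35 (without H1650) for the keratins, -1.02 (without H1975) and 0.23 (without H460) for the integrins, -0.88 (without A549) and 0.81 (without H1975) for the chemokines and cytokines, -0.71 (without H1975) and -0.05 (without A549) for the serine and ATF4 genes and -0.56 (without A549) and 0.47 (without H460) for the secretory genes. Of the remaining lists, the median lay between -0.27 and 0.16 for glycolysis, -0.19 and 0.49 for fibroblast markers, 0.17 and 0.63 for aldehyde dehydrogenases, -0.48 and -0.26 for the RAS cascade, -0.37 and -0.07 for tumour suppressors, -0.09 and 0.17 for ERK output genes, 1.66 and 1.80 for NRF2 targets, -1.32 and -0.81 for interferon genes and 0.44 and 0.57 for p53 targets. The cause was not tested.

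Counts for 3 lists were added after the data were seen. With 1 line left out or 1 population alone, separated members numbered 16 to 19 for NRF2 targets (16 over all arrays), 5 to 6 for CREB and CRTC targets (4 over all arrays) and, lower in the K-Ras lines, 9 to 15 for interferon genes (9 over all arrays). By the rule, no count over fewer arrays can fall below that over all arrays. Of the 278 named genes checked, 62 changed the sign of their difference under at least 1 alternative, 41 of them only with a line left out, and all 62 had overlapping arrays. None of the 95 separated genes named did so, which for the subsets of arrays the rule itself fixes. The number of lines, 2 per class, limits the precision. Of the 490 separated genes 145 had a mean log2 signal under 5 in the dimmer class, so their folds are less sure.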

Other observations

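The genes of this section were chosen after their values were seen, so their counts carry no test. Enzymes that degrade cyclic nucleotides, found by symbol, were separated in the K-Ras mutant lines more often than PDE4D and PDE3A alone. Of 14 phosphodiesterase genes tested, 7 were at least 2-fold higher on every K-Ras array, 1 was at least 2-fold lower, against 1.85% and 2.13% of all genes, and the median difference was 3.32. PDE10A had log2 signals of 9.49 and 9.03 in A549, 9.83 and 9.77 in H460, 3.26 and 3.13 in H1650 and 2.80 and 3.60 in H1975, the SP array first here and below. PDE8B, which is specific for cyclic AMP, had signals of 10.41 and 10.28 in A549, 8.88 and 9.08 in H460, 5.86 and 5.74 in H1650 and 5.28 and 6.25 in H1975. PDE1C, PDE3B and PDE7B were also separated higher, with folds of 18, 13.2 and 13.4 with the linear signal raised to at least 32. PDE5A, which is specific for cyclic GMP, had the opposite order, with signals of 5.98 and 6.12 in A549, 4.25 and 4.23 in H460, 8.46 and 8.55 in H1650 and 8.66 and 8.34 in H1975. PDE4A overlapped and was bright in H1975 alone, with a difference of -1.54 (SE 1.26).

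Further interferon-induced genes outside the list had lower signals on every K-Ras array. GBP1, a guanylate-binding protein, had signals of 8.33 and 8.92 in A549, 8.08 and 8.56 in H460, 12.07 and 12.26 in H1650 and 12.13 and 12.22 in H1975. OASL had signals of 7.76 and 7.69 in A549, 5.92 and 5.53 in H460, 12.06 and 11.68 in H1650 and 12.04 and 11.99 in H1975, and XAF1 of 5.60 and 6.03 in A549, 4.70 and 4.71 in H460, 10.68 and 10.20 in H1650 and 10.36 and 10.82 in H1975. HERC5, the ligase that attaches ISG15, had a difference of -3.57 (SE 0.36) and IFIH1, the RNA sensor MDA5, of -2.93 (SE 0.40). DDX60 and ERAP2, a peptidase that trims antigens, had differences of -3.29 (SE 0.46) and -4.32 (SE 0.59). These 7 genes had adjusted p-values of 0.00452 (GBP1), 0.00897 (OASL), 0.0127 (XAF1), 0.00713 (HERC5), 0.0137 (IFIH1), 0.0129 (DDX60) and 0.00897 (ERAP2) in limma with the line as a random block, and of 0.0905 to 0.219 over lines. CASP1 and CASP4, caspases of the inflammasome, were separated in the same direction, with differences of -2.67 (SE 0.51) and -2.13 (SE 0.59), and the other 5 caspases tested overlapped.

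Zinc finger genes with a ZNF symbol numbered 363 among those tested. Of these 27 were separated lower in the K-Ras mutant lines, 26 of them on chromosome 19, and 1 was separated higher, against 2.13% and 1.85% of all genes, while 160 of the 363 lie on chromosome 19. Arrays did not overlap in 92 with the K-Ras arrays lower and in 19 with the K-Ras arrays higher, against 13.6% and 12.0% of all genes, and the median difference was -0.46. ZNF91 had signals of 6.17 and 5.41 in A549, 2.18 and 2.24 in H460, 9.33 and 9.46 in H1650 and 10.75 and 10.69 in H1975. Transcripts of this family are alike in sequence, so that probe sets may share targets.

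UCHL1, a ubiquitin hydrolase of neurons, had signals of 13.52 and 13.84 in A549, 14.07 and 14.06 in H460, 7.63 and 8.30 in H1650 and 7.87 and 7.94 in H1975 and an adjusted p of 0.0823 over lines and 0.00115 with the line as a random block. SLFN11, a gene known for sensitivity to agents that damage DNA, had signals of 9.98 and 9.59 in A549, 8.83 and 8.74 in H460, 4.82 and 3.49 in H1650 and 2.03 and 3.72 in H1975. COL4A6 and COL4A5, chains of basement membrane collagen, were separated higher, COL4A6 with signals of 12.01 and 11.83 in A549, 12.98 and 12.95 in H460, 6.02 and 6.96 in H1650 and 6.25 and 7.04 in H1975.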
